A study of Homo sapiens with 12 samples.

Results

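HLA class I and peptide loading genes were followed in 2 prostate cancer cell lines and in the docetaxel-resistant lines derived from them. The members are the 9 genes HLA-B, HLA-C, HLA-E, HLA-F, HLA-G, B2M, TAP1, TAP2 and TAPBP. All probe sets that the array annotation assigned to these symbols were taken, whatever their values. They are 9 of 11963 genes with a probe set of their own on the smaller array type, read by 25 of its 22215 probe sets, and of 19775 genes on the larger, read by 28 of 54613. Of the 25, 15 have names ending in _x_at, which marks probes that can bind transcripts of related genes. These are all 3 probe sets of HLA-B, all 4 of HLA-C, 2 of 3 of HLA-E, 2 of 3 of HLA-F and all 4 of HLA-G, so that their readings are less specific to 1 gene. Probe sets of 1 gene, and _x_at probe sets of related genes, share target sequence and are not independent observations.

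Class I molecules show peptides from inside the cell to CD8 T cells. Their heavy chains (HLA-B, HLA-C and the less variable HLA-E, HLA-F and HLA-G) pair with beta-2 microglobulin, encoded by B2M. TAP1 and TAP2 form the transporter that carries peptides into the endoplasmic reticulum, and tapasin, encoded by TAPBP, holds the empty class I molecule at that transporter. Interferon raises the transcription of most of these genes together, and NK cells read the level of class I and of HLA-E on other cells.

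DU145 and 22Rv1 are established human prostate cancer lines, and DU145-DR and 22Rv1-DR are the docetaxel-resistant lines. Docetaxel is a taxane that stabilises microtubules. Parental cells were grown without the drug, and resistant cells under docetaxel, all in RPMI with fetal bovine serum, so that resistance and drug exposure cannot be told apart. Each of the 4 groups had 3 arrays of total RNA, with replicates 1 and 2 on the smaller array type (8 arrays, tested together) and replicate 3 on the larger (4 arrays, 1 a group, with no test). The replicate 3 arrays of a line are called the third pair. The sources used here do not say if replicates came from separate cultures. The p-values therefore cover the spread among these arrays alone, and it may be technical.

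The promoters of 5 members are shown here, picked by their changes in the tested arrays. Probe sets of HLA-B and HLA-C fell in 22Rv1-DR, and TAP1 and an HLA-F probe set fell in DU145-DR. B2M changed least there among the bright members in DU145-DR. Promoters from RefSeq on GRCh38.p14 (250 bases before to 50 after a gene's annotated start) were matched by symbol for 8 of the 9 genes, all but HLA-E, in 11 entries. Capitals mark the interferon-stimulated element (GAAA and a second GAAA after any 2 bases), the Y box CCAAT and the cyclic AMP element core TGACG on either strand, and in HLA-B and HLA-C a looser interferon element (GAA and, after any 2 bases, GAAAC) that was added after these promoters had been seen. The stretches lie at chr6:31357221-31357345 (HLA-B, minus strand), chr6:31272134-31272294 (HLA-C, minus strand), chr6:29723268-29723391 (HLA-F, plus strand), chr15:44711363-44711482 (B2M, plus strand) and chr6:32853813-32853954 (TAP1, minus strand), each written in the direction of its gene.
HLA-B: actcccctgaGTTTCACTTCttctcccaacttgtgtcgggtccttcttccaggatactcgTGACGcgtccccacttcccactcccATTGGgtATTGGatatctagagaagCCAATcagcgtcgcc
HLA-C: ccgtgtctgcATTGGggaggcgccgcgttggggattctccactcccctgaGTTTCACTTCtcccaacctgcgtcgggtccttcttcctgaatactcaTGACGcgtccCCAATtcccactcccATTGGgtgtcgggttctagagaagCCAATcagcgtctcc
HLA-F: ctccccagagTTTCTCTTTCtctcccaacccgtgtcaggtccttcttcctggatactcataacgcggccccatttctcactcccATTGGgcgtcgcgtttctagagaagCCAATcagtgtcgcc
B2M: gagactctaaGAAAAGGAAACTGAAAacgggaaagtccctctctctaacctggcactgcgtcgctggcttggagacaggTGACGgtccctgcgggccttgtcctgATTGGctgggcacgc
TAP1: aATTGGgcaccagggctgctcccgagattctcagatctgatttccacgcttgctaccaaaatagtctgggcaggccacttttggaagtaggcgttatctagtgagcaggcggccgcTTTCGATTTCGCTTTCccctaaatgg

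The interferon-stimulated element was found in 5 of the 11 member promoters, those of HLA-F, TAP1, TAP2, TAPBP and B2M, 5 of the 8 genes, and in 3.57% of all 35116 promoters. In TAP1, TAPBP and B2M 2 overlapping matches were found. The Y box was found in 6 of the 11 promoters, of 6 genes, and in 34.6% of all. The cyclic AMP element core was found in 4 of the 11 (HLA-B, HLA-C, TAP2 and B2M) and in 24.6% of all. The looser interferon element was found in 2 of the 11, HLA-B and HLA-C, and in 1.46% of all. In HLA-B it begins 156 bases before the start, the same distance as the interferon-stimulated element of HLA-F. A match describes these letters and is not a measured binding site.

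Values are probe-set intensities, and changes are differences of log2(intensity + 16), resistant minus parental, with the standard error (SE) of a limma model across all 8 arrays and p-values adjusted over all 16903 probe sets tested. A probe set passed when its adjusted p was under 0.05. Of the 25 member probe sets, 24 were bright enough to be tested, and the exception was 1 of the 3 for TAP2. The 5th percentile of an array's values was 35.8 to 38.6 in DU145 and DU145-DR arrays of the smaller type and 11.5 to 12.3 in 22Rv1 and 22Rv1-DR arrays, so levels are not set between the lines there. On the larger type it was 10.9 to 11 in all 4 arrays. The prostate genes KLK2 and HOXB13 were higher in rank in 22Rv1 than in DU145 arrays. Of 12 leukocyte markers, 11 were on the arrays, and PTPRC, which defines leukocytes, stood at percentile 6.84 to 30.1 of each array. Others stood higher: on the larger type CD79A was at percentile 63.9 to 69.4, and on the smaller CD3D reached 55.7 in a DU145 array.

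On the larger array type all 28 member probe sets were higher in the DU145 array than in the 22Rv1 array, which held for 52.1% of all probe sets on that type. For 20 of the 28 the order was DU145, DU145-DR, 22Rv1, 22Rv1-DR from high to low, an order found in 5.34% of all probe sets. HLA-B (209140_x_at) had intensities of 7913, 4153, 949 and 145 in that order. HLA-C (208812_x_at) had 7434, 3350.1, 996 and 68.1, and TAP1 had 1009.9, 425, 274 and 231. B2M (216231_s_at) kept a high level in all 4 arrays, with 15717, 6252, 8023 and 3281, and did not follow that order. Its other probe set (201891_s_at) did, with 11829, 8249, 8192 and 4329.6. There is 1 array a group here, and these orders carry no estimate of error.

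**Figure D1:**
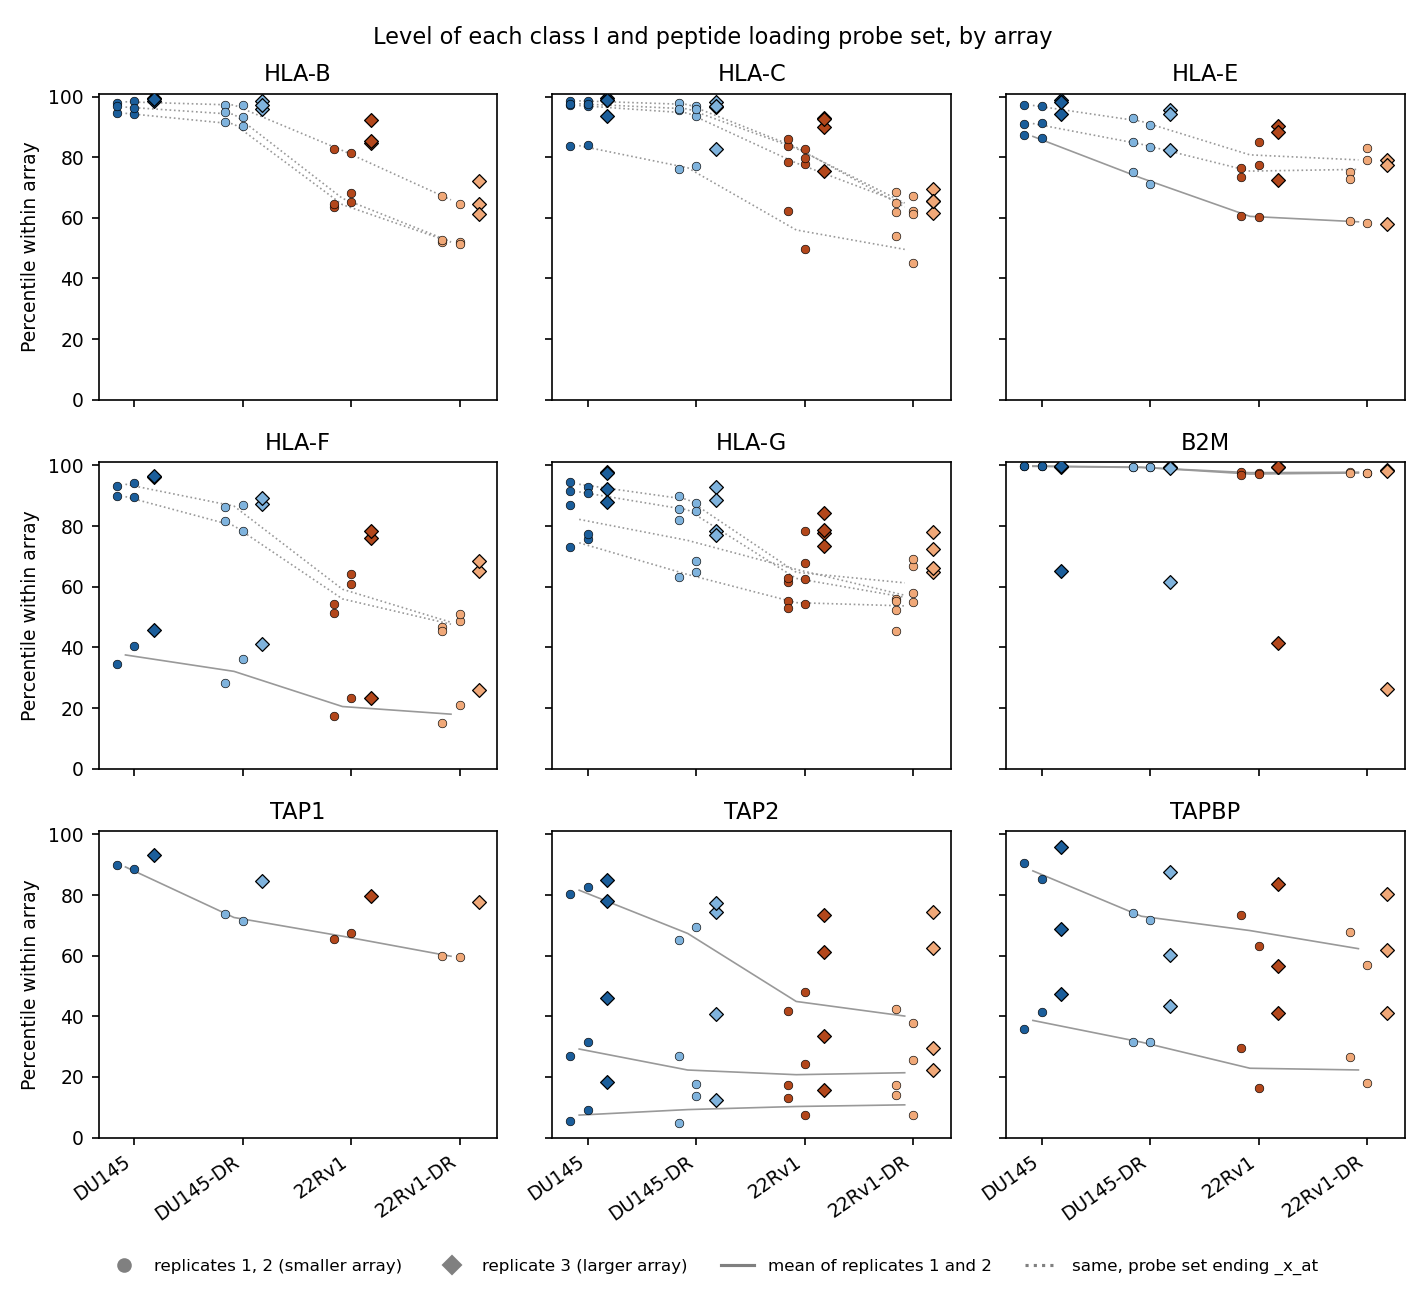
Percentile of each member probe set within its array (y axis, 0 to 100) in the 4 groups (x axis), 1 panel a gene. Circles are replicates 1 and 2 with a line through their means (dotted for _x_at probe sets), and diamonds are replicate 3. B2M's main probe sets stay near the top of every array, while the bright probe sets of the other genes mostly lie lower in the 22Rv1 and 22Rv1-DR arrays.

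In DU145-DR, the transporter subunit TAP1 and the heavy chain gene HLA-E fell against DU145, with the TAP2 and HLA-F probe sets that passed. Of 24 tested member probe sets, 4 fell, 0 rose and 20 did not pass the limma test, where 4.25% of all tested probe sets fell and 4.16% rose. At an unadjusted p under 0.05, 15 of the 24 were lower and 0 higher, where 10.3% of all tested probe sets were lower and 11.1% higher. The change was below 0 for 24 of all 25 member probe sets, with a median of -0.62 against -0.01 over all probe sets tested. The exception was the dim TAP2 probe set (208428_at), at 0.03. Replicates of the same number deviated together within the line. When that number entered as a block, 23 of the 24 fell and 0 rose, where 15.4% of all tested probe sets fell and 16.8% rose. The 1 that did not was TAP2 204770_at (adjusted p = 0.155 with the block).

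TAP1 (202307_s_at), a subunit of the peptide pump, had intensities of 2106 and 2304 in DU145 and 704 and 704 in DU145-DR. The groups were far apart and did not overlap. The change was -1.62 ± 0.18 (SE; adjusted p = 0.00141), or 3.08-fold lower on the log2(intensity + 16) scale. It read 1009.9 in DU145 and 425 in DU145-DR in the third pair, a change of -1.22. The call for TAP1 held with any 1 of the 8 arrays left out, with an adjusted p of at most 0.0149.

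TAP2, the other subunit, was read by 3 probe sets of very different brightness. The brightest (204769_s_at) had 1017 and 1458 in DU145 and 437 and 635 in DU145-DR, with no overlap, and changed by -1.19 ± 0.27 (adjusted p = 0.0317). The third pair showed little of this, with 231 and 186 (-0.29). The call was lost without any of 7 of the 8 arrays, all but DU145-DR replicate 2, with an adjusted p of up to 0.163, and in the fit of all 12 arrays. The other TAP2 probe set tested (204770_at) read 81 and 77.2 against 76.6 and 51.3 and changed by -0.27 ± 0.21 (adjusted p = 0.587). A further probe set present on the larger type (225973_at) read 410.1 in DU145 and 236 in DU145-DR.

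TAPBP, which encodes tapasin, had a wider error than TAP1. Its bright probe set (208829_at) read 2226 and 1758 in DU145 and 719 and 724 in DU145-DR, well apart, and 1552 against 556 in the third pair. The change was -1.44 ± 0.40 and did not pass (adjusted p = 0.0674), while it passed with the replicate block (adjusted p = 0.00154). The dim probe set (210294_at) changed by -0.39 ± 0.20 (adjusted p = 0.327; 0.0422 with the block). A TAPBP probe set of the larger type alone (1555565_s_at) read 116 in DU145 and 66.3 in DU145-DR, a change of -0.68.

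HLA-E presents leader peptides of other class I chains to NK cell receptors, and it has the only member probe set of a heavy chain that both passed and is not of the _x_at kind. This probe set (200904_at) read 1675 and 1924 in DU145 and 755 and 695 in DU145-DR. The values did not overlap, and the change was -1.29 ± 0.19 (adjusted p = 0.00619), or 2.45-fold lower. The third pair gave 1184 and 352, a change of -1.71. Its call held without any 1 array (adjusted p of at most 0.0430) and was lost when only the 4 arrays of the line were fitted (adjusted p = 0.0706). Both _x_at probe sets of HLA-E lay in the same direction, at -1.15 ± 0.30 and -0.81 ± 0.23. Neither passed without the block (adjusted p = 0.0560 and 0.0735), and both did with it (0.00216 and 0.00468).

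HLA-F, a heavy chain that can reach the surface without peptide, was read by 2 bright _x_at probe sets and a dim specific one. The first (204806_x_at) had 2077 and 2521 in DU145 and 1128 and 1121 in DU145-DR, with no overlap, and fell by 1.01 ± 0.24 (adjusted p = 0.0395). It read 1795 and 549 in the third pair. This call was lost without any 1 of the 4 DU145 and DU145-DR arrays or of both 22Rv1-DR arrays (adjusted p of up to 0.181). The call was also lost with pseudocount 1 and with the arrays shifted to 1 median. It was lost too when only the 4 arrays of the line were fitted, and in the fit of all 12 arrays. The second (221875_x_at) changed by -1.02 ± 0.30 and did not pass (adjusted p = 0.0800; 0.00401 with the block). The specific probe set (221978_at) read 105 and 111 against 80.4 and 90.5 and changed by -0.30 ± 0.18 (adjusted p = 0.422; 0.0493 with the block).

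The classical heavy chains HLA-B and HLA-C, which present most peptides, differed by less in this line. HLA-B (208729_x_at) read 3616 and 4390.0 in DU145 and 2452 and 2856 in DU145-DR. Those groups did not overlap, while those of 209140_x_at did (7383 and 11347 against 5557 and 7968). The 3 HLA-B changes were -0.46 to -0.59 and the 4 HLA-C changes -0.53 to -0.65. None passed without the block (adjusted p of 0.0878 to 0.45), and all 7 passed with it (0.00833 to 0.0279). The 7 changes of the third pair were -0.93 to -1.50.

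HLA-G, a heavy chain best known from placenta, was read by _x_at probe sets alone. One of them (211529_x_at) had 2469 and 2896 in DU145 and 1468 and 1795 in DU145-DR, and 2402 against 622 in the third pair. The 4 changes were -0.61 to -0.82, with none passing without the block and all 4 with it (adjusted p of 0.00468 to 0.0113). For 211530_x_at the replicates differed more than the groups did, with 1641 and 996 against 1152 and 596, and its change had an SE of 0.75.

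B2M, the shared light chain, changed least among the bright members in the tested arrays, where it stood at percentile 99.3 to 99.8. Its probe set 201891_s_at read 18054 and 22073 in DU145 and 14067 and 18054 in DU145-DR, so that the groups met at 18054. The change was -0.32 ± 0.22 (adjusted p = 0.490; 0.0375 with the block), with a 95% interval of -0.82 to 0.17. The other (216231_s_at) changed by -0.38 ± 0.22 (adjusted p = 0.401; 0.0226 with the block). The third pair gave -0.52 and -1.33, so the probe sets of this gene differed from each other there. B2M did not change least in that pair, where TAP2 204769_s_at changed by -0.29. A dim B2M probe set of the larger type alone (232311_at) changed by -0.28.

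**Figure D2:**
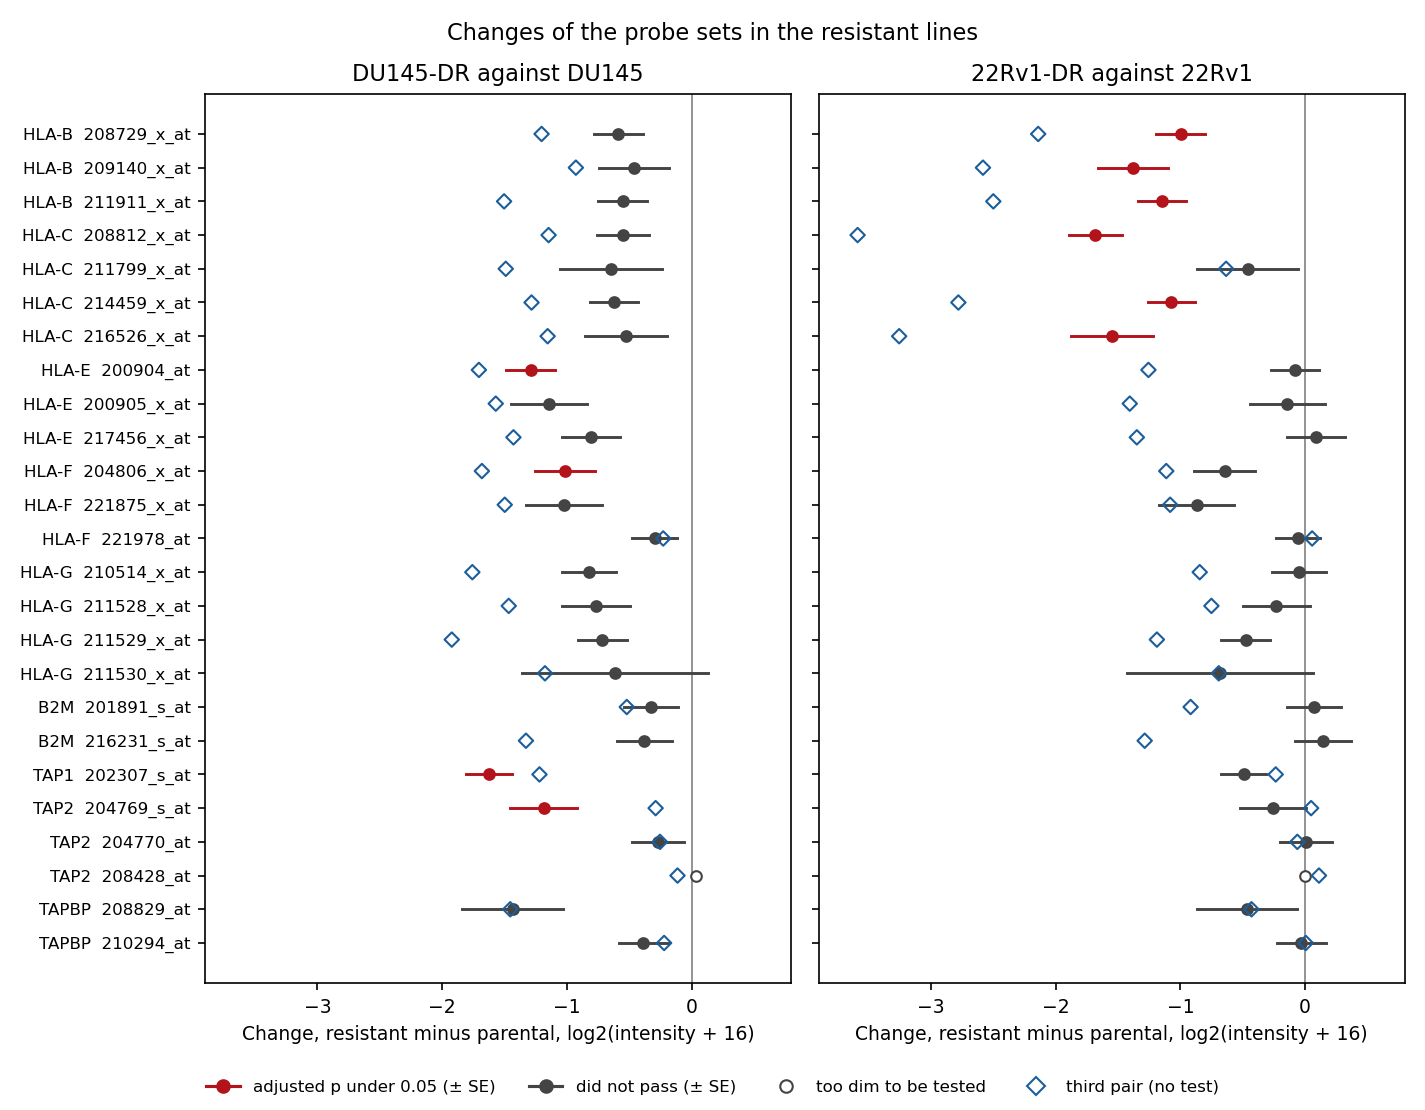
Change of each member probe set (x axis, resistant minus parental, log2(intensity + 16)) in DU145-DR (left) and 22Rv1-DR (right). Filled points are changes from 8 arrays with SE bars, red where the adjusted p was under 0.05, black open circles are a probe set too dim to test, and blue diamonds are the third pair. In DU145-DR most points lie between 0 and -1.62, and in 22Rv1-DR the red points belong to HLA-B and HLA-C.

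Without regard to any test, 20 of the 25 probe sets had both DU145-DR arrays below both DU145 arrays, as did 16.9% of all probe sets. All 28 were lower in DU145-DR in the third pair, as were 53.4% of all probe sets, and 18 were lower by at least 1 on the log2 scale, where 4.73% of all probe sets were. The median of the 28 was -1.21, against -0.02 over all probe sets. In each of the 3 pairs DU145-DR was lower for 24 of the 25 probe sets, as for 27% of all.

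In 22Rv1-DR the probe sets of the classical heavy chains fell against 22Rv1, while those of HLA-E and B2M lay near 0 in the tested arrays. Of 24 tested member probe sets, 6 fell, 0 rose and 18 did not pass the limma test, where 1.98% of all tested probe sets fell and 2.19% rose. The 6 were all 3 of HLA-B and 3 of 4 of HLA-C, all of the _x_at kind. TAP2 204769_s_at and 204770_at, HLA-F 221978_at and TAPBP 210294_at had 22Rv1 means of log2 5.08 to 5.94. These lie below the filter value of 6.49, so the probe sets were tested through the DU145 line alone and had limited room to fall here. The same filter applied to all probe sets behind these shares. At an unadjusted p under 0.05, 10 of the 24 were lower and 0 higher, where 6.34% of all tested probe sets were lower and 8.2% higher. The change was below 0 for 21 of all 25, with a median of -0.46 against 0.01 over all probe sets tested. With the replicate block 12 fell and 0 rose, where 8.77% of all tested probe sets fell and 11.1% rose.

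HLA-C (208812_x_at) read 580.0 and 526 in 22Rv1 and 189 and 137 in 22Rv1-DR. The groups were well apart, and the change was -1.68 ± 0.21 (adjusted p = 0.00279), or 3.21-fold lower. The third pair gave 996 and 68.1, a change of -3.59. It is the 1 member call of this line that held without any 1 array (adjusted p of at most 0.0389).

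HLA-C's probe sets did not all behave alike. For 216526_x_at the values were 685 and 425 against 229 and 131, with a change of -1.55 ± 0.33 (adjusted p = 0.0362). For 214459_x_at they were 399 and 365 against 156 and 191, with -1.07 ± 0.19 (adjusted p = 0.0160). Both sets of groups were apart, and the third pair gave -3.26 and -2.78. The fourth probe set (211799_x_at) read 150.1 and 58.1 in 22Rv1 and 91.8 and 44.3 in 22Rv1-DR, which overlap. Its change was -0.46 ± 0.41 (adjusted p = 0.841; 0.0409 with the block), and -0.63 in the third pair.

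HLA-B moved the same way in all 3 of its probe sets. For 209140_x_at the values were 541 and 481 in 22Rv1 and 215 and 161 in 22Rv1-DR, and 949 against 145 in the third pair. Its change was -1.38 ± 0.28 (adjusted p = 0.0292). For 211911_x_at they were 174 and 197 against 84.4 and 65.8, with -1.15 ± 0.19 (adjusted p = 0.0127). For 208729_x_at they were 162 and 163 against 78.8 and 68.6, with -0.996 ± 0.20 (adjusted p = 0.0252). None of these groups overlapped, and the third pair gave -2.58, -2.50 and -2.14.

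Leaving out any 1 of the 4 arrays of this line ended the calls for all 3 HLA-B probe sets and for HLA-C 214459_x_at, with an adjusted p of up to 0.231. The call for HLA-C 216526_x_at was lost without either 22Rv1 array, either DU145 array or 22Rv1-DR replicate 2 (up to 0.286). The sign held in each of these fits.

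**Figure D3:**
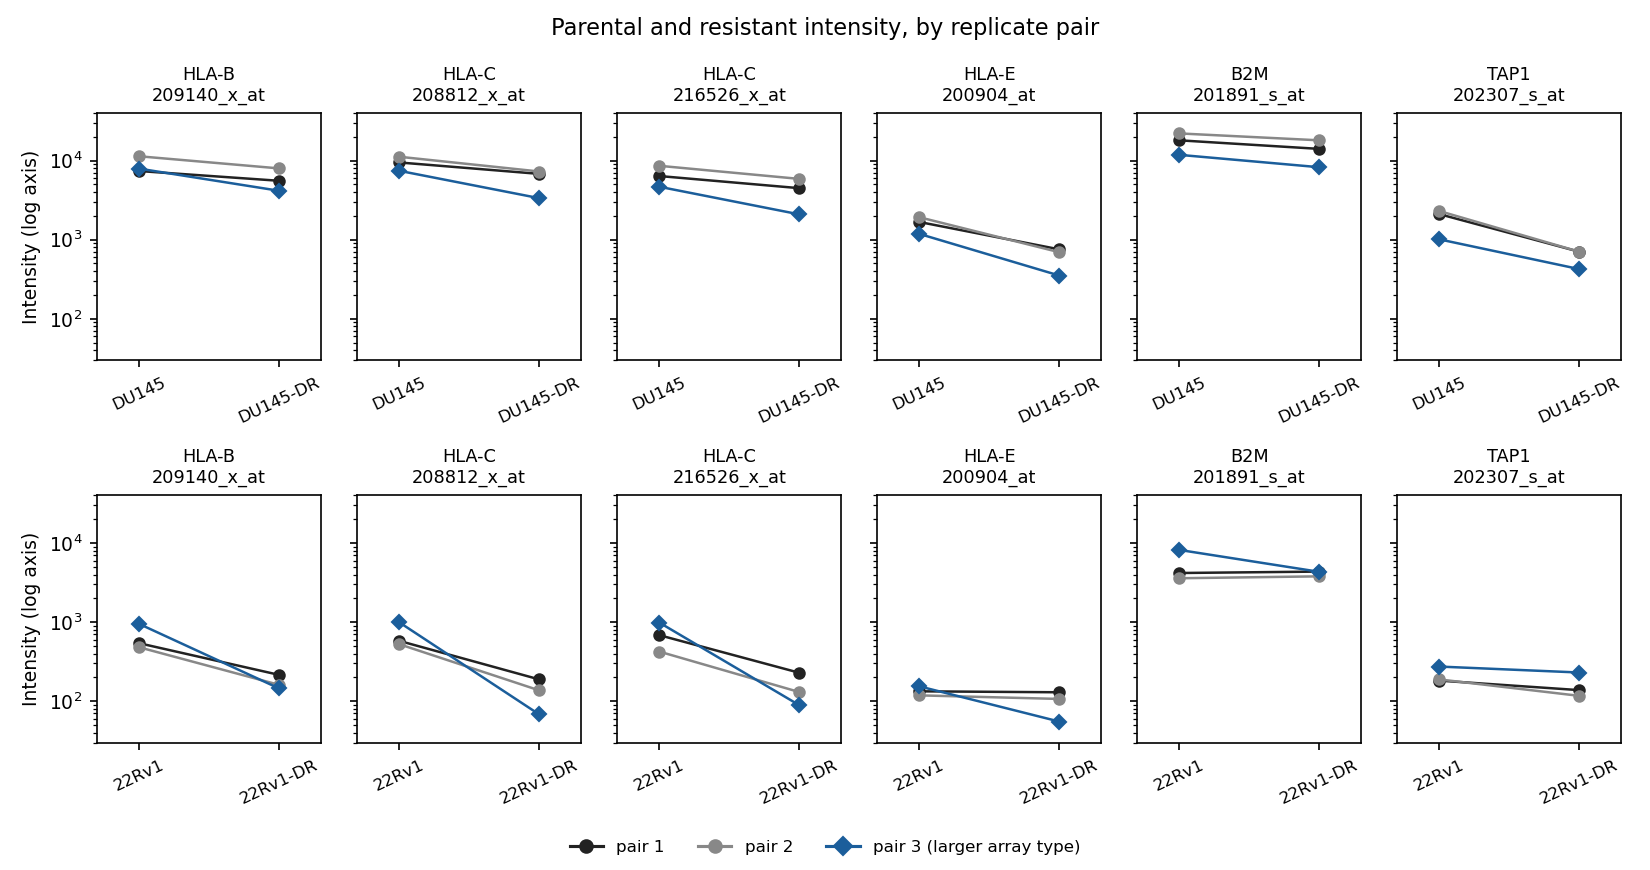
Intensity (y axis, log scale) of 6 member probe sets in the parental and the resistant array of each replicate pair, with DU145 in the upper row and 22Rv1 in the lower. Lines join arrays of the same replicate number, and pair 3 is on the larger array type. The HLA-B and HLA-C probe sets shown were picked because they fell most in 22Rv1-DR. Those of HLA-E, B2M and TAP1 are the brightest in 22Rv1 not ending in _x_at. The HLA-B and HLA-C probe sets shown slope down in all 3 pairs of both lines. Those of HLA-E and B2M in the 22Rv1 line slope down clearly in pair 3 alone.

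HLA-E in this line gave different changes in the tested arrays and in the third pair. The specific probe set (200904_at) read 133 and 119 in 22Rv1 and 129.8 and 107 in 22Rv1-DR, which overlap. The change was -0.08 ± 0.19, with a 95% interval of -0.53 to 0.36. In the third pair it read 154 and 55.3, a change of -1.26. The _x_at probe sets did the same, with -0.14 ± 0.30 and 0.09 ± 0.23 in the tested arrays and -1.41 and -1.35 in the third pair.

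B2M showed the same split. Its probe set 201891_s_at read 4182 and 3591 in 22Rv1 and 4359.7 and 3795 in 22Rv1-DR, with overlap, and changed by 0.07 ± 0.22 (95% interval -0.43 to 0.57). The third pair gave 8192 and 4329.6, a change of -0.92. The other probe set changed by 0.14 ± 0.22 in the tested arrays and by -1.29 in the third pair. The dim 232311_at, on the larger type alone, changed by -0.34. The third pair differs from the tested arrays in both array type and replicate. These cannot be told apart as the source of the split.

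The transporter, tapasin, HLA-F and HLA-G did not pass in 22Rv1-DR. TAP1 read 182 and 189 in 22Rv1 and 138 and 117 in 22Rv1-DR, with no overlap, and changed by -0.49 ± 0.18 (adjusted p = 0.233; 0.0289 with the block). The third pair gave 274 and 231 (-0.24). TAPBP (208829_at) changed by -0.47 ± 0.40 (adjusted p = 0.829; 0.0450 with the block), and its dim probe set (210294_at) by -0.03 ± 0.20. In the third pair 208829_at changed by -0.43, while TAPBP 1555565_s_at, on the larger type alone, changed by 0.32.

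HLA-F's bright probe sets changed by -0.64 ± 0.24 and -0.87 ± 0.30 (adjusted p = 0.251 and 0.198, the second 0.00882 with the block), and its dim one by -0.05 ± 0.18. The 4 HLA-G changes ran from -0.05 to -0.68, of which 211529_x_at and 211530_x_at passed with the block (adjusted p = 0.0252 and 0.0121). TAP2's brightest probe set read 30.5 to 52.3 and changed by -0.26 ± 0.27. TAP2 204770_at changed by 0.006 ± 0.21, and the dim 208428_at, which was not tested, by -0.002. On the larger type TAP2 225973_at changed by 0.07 in the third pair. The dim TAPBP and HLA-F probe sets read 15.5 to 23.1, where the 5th percentile of these arrays was 11.5 to 12.3.

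In 10 of the 25 probe sets both 22Rv1-DR arrays lay below both 22Rv1 arrays, which held for 20.2% of all probe sets. Of the 28, 22 were lower in 22Rv1-DR in the third pair, as were 44.4% of all probe sets, and 13 were lower by at least 1, where 2.32% of all probe sets were. The median of the 28 was -0.88, against 0.02 over all probe sets. The resistant array was lower in each of the 3 pairs for 16 of the 25, as for 19.6% of all.

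The changes of both lines were set against each other within the same fit. The 22Rv1 change minus the DU145 change was above 0 for HLA-E 200904_at, at 1.21 ± 0.27 (adjusted p = 0.0387), and for TAP1, at 1.13 ± 0.26 (adjusted p = 0.0395). The remaining 22 did not pass, so that 2 were called higher and 0 lower, where 3.39% of all tested probe sets were higher and 2.84% lower. At an unadjusted p under 0.05, 6 were higher and 2 lower, where 10% of all tested probe sets were higher and 8.76% lower. In the third pair the difference was 0.45 for HLA-E 200904_at and 0.98 for TAP1. Each call was lost when any of 7 of the 8 arrays was left out, with adjusted p values of up to 0.191 for HLA-E and 0.183 for TAP1. The array whose loss left the call was DU145-DR replicate 1 for HLA-E and DU145-DR replicate 2 for TAP1.

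HLA-C (208812_x_at) had the largest difference the other way, at -1.13 ± 0.30. It did not pass (adjusted p = 0.0647). It passed with the block (adjusted p = 0.00632), with the filter at the 60th percentile (HLA-C 208812_x_at, adjusted p = 0.0444) and with quantile normalization (0.0407). With the block 8 member probe sets were higher and 3 lower in the difference, against 14.9% and 13.8% of all tested. The 3 lower ones were HLA-B 209140_x_at and HLA-C 208812_x_at and 216526_x_at. Their differences in the third pair were -1.66, -2.44 and -2.10.

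Other genes of the pathway were taken from a list of 57, of which 51 were on the smaller array type and 47 were bright enough to test, 1 probe set a gene. In DU145-DR 5 of the 47 fell and 0 rose in the limma test, where 4.25% and 4.16% of all tested probe sets did. At an unadjusted p under 0.05, 10 were lower and 7 higher, against 10.3% and 11.1% of all. With the block 12 fell and 7 rose, against 15.4% and 16.8% of all. The median of the 47 was -0.07. The largest falls were in PSMB9, PSMB8, PSME1 and ERAP2. Of 8 immunoproteasome and proteasome genes tested, 3 fell. The others did not pass: PSMB10 (-0.18 ± 0.23), PSME3 (-0.59 ± 0.19), PSMB5 (-0.51 ± 0.21), PSMB6 (0.20 ± 0.21) and PSMB7 (0.59 ± 0.19). With the block 5 of the 8 fell and 1 rose. Of 6 cytosolic peptidases tested 0 passed without the block, and their median change was 0.15.

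PSMB9, a catalytic subunit that replaces its constitutive counterpart in the immunoproteasome, read 2647 and 3397 in DU145 and 129 and 324 in DU145-DR. The change was -3.76 ± 0.36 (adjusted p = 0.00068), and -4.43 in the third pair. PSMB8, another such subunit, read 2120.2 and 2684 against 422 and 605, with -2.20 ± 0.24 (adjusted p = 0.0012). PSME1, a subunit of the proteasome activator, read 3492 and 4451 against 657 and 1278, with -2.08 ± 0.30 (adjusted p = 0.00534). The groups of all 3 were widely apart, and none of the 3 calls was lost without any 1 array. The PSME1 call was lost when only the 4 arrays of the line were fitted. On chromosome 6, TAP2, PSMB8, TAP1 and PSMB9 follow each other in that order in RefSeq.

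ERAP2, an endoplasmic reticulum peptidase that trims class I peptides, read 626 and 676 in DU145 and 286 and 164 in DU145-DR. It changed by -1.51 ± 0.25 (adjusted p = 0.00982) and by -1.99 in the third pair. IRF9, the DNA-binding partner in type I interferon signalling, read 556 and 549 against 284 and 190.0, with -1.19 ± 0.22 (adjusted p = 0.0145). Both were apart between the groups, and both calls were lost without DU145 replicate 1 or replicate 2 (adjusted p of up to 0.0629 and 0.0755). Both calls were also lost when only the 4 arrays of the line were fitted, and that of IRF9 in the fit of all 12 arrays. IRF1, a transcription factor of class I and TAP1 promoters, changed by -0.997 ± 0.28 (adjusted p = 0.0645; 0.00318 with the block).

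The chaperones of the loading complex did not pass in DU145-DR. CALR (calreticulin) changed by 0.06 ± 0.40 and PDIA3, a disulfide isomerase of the complex, by -0.17 ± 0.22. ERAP1, the partner of ERAP2, changed by -0.31 ± 0.24. NLRC5, the class I transactivator, was measured on the larger array type, at 133 in DU145 and 154 in DU145-DR, and at 27.3 in 22Rv1 and 24.8 in 22Rv1-DR.

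In 22Rv1-DR 1 of the 47 pathway genes rose and 0 fell in the limma test, where 2.19% and 1.98% of all tested probe sets did. At an unadjusted p under 0.05, 2 were lower and 3 higher, against 6.34% and 8.2% of all. With the block 3 fell and 6 rose, against 8.77% and 11.1% of all. The gene that rose was JAK1, a kinase of the interferon receptors, with 45.6 and 53.8 in 22Rv1 and 138 and 172 in 22Rv1-DR. These did not overlap, and the change was 1.38 ± 0.21 (adjusted p = 0.00814), with 0.93 in the third pair. The call was lost without either 22Rv1 array or 22Rv1-DR replicate 2 (adjusted p of up to 0.105), and in the fit of all 12 arrays. PSMB9 changed by -0.22 ± 0.36 and PSMB8 by -0.21 ± 0.24, where PSMB8 read 20.8 to 32.2 and ERAP2 12.6 to 15.5. The 5th percentile of these arrays was 11.5 to 12.3. CALR and PDIA3 changed by -0.79 ± 0.40 and -0.77 ± 0.22. Neither passed without the block (adjusted p = 0.454 and 0.107), and both did with it (0.0418 and 0.00677).

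The difference between the lines passed for 5 pathway genes, all higher: PSMB9 (3.55 ± 0.51), PSMB8 (1.99 ± 0.33), PSME1 (1.78 ± 0.43), ERAP2 (1.496 ± 0.36) and IRF9 (1.31 ± 0.31), with adjusted p values of 0.00576 to 0.0471. Of all tested probe sets 3.39% passed as higher and 2.84% as lower. In the 22Rv1 line ERAP2 read 12.6 to 15.5, PSMB8 20.8 to 32.2 and PSMB9 56.1 to 75.6. The 5th percentile there was 11.5 to 12.3, so a fall as large as in DU145-DR could not have shown for these genes. PSME1 was bright in the 22Rv1 line, at 2241 and 2402 against 1795 and 1951, and changed there by -0.31 ± 0.30. The PSMB9 call alone held without any 1 array. At an unadjusted p under 0.05, 13 were higher and 2 lower, against 10% and 8.76% of all.

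**Figure D4:**
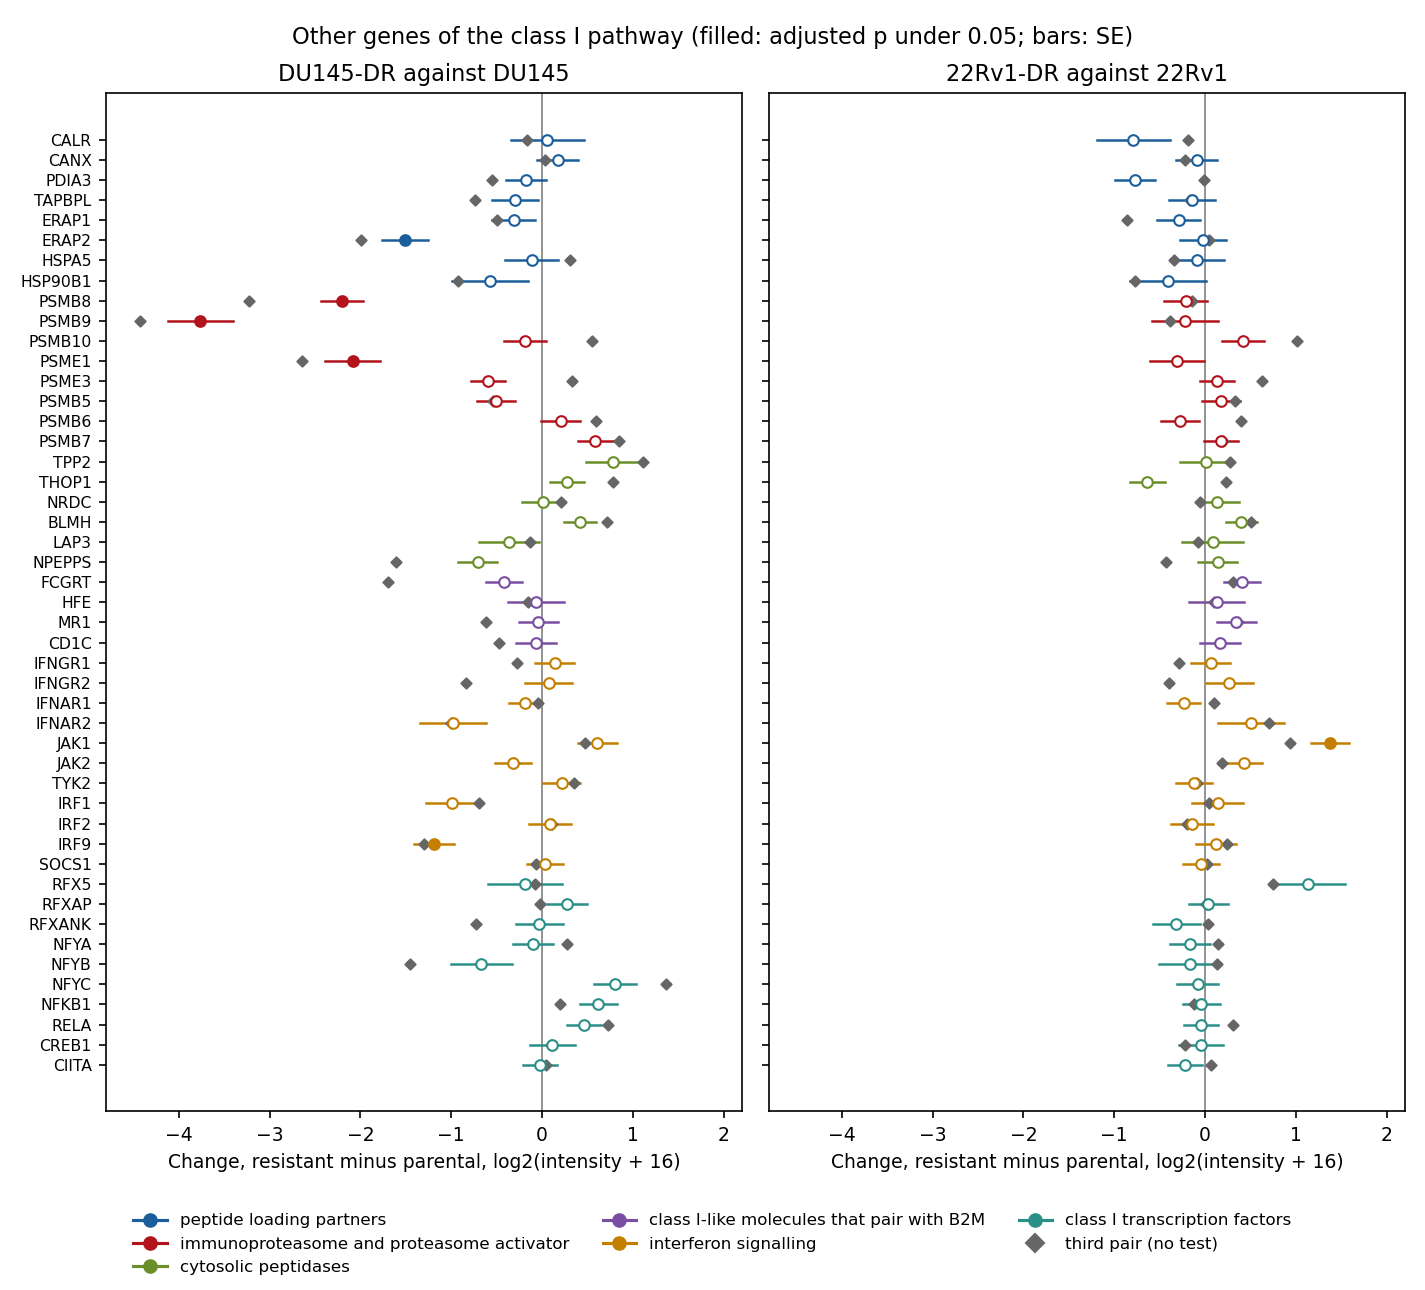
Change of the 47 tested pathway genes outside the members (x axis, log2(intensity + 16), resistant minus parental) in DU145-DR (left) and 22Rv1-DR (right). Circles with SE bars come from 8 arrays, are filled where the adjusted p was under 0.05 and are coloured by list, and grey diamonds are the third pair. PSMB9, PSMB8, PSME1, ERAP2 and IRF9 are filled to the left in DU145-DR, and JAK1 to the right in 22Rv1-DR.

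Markers of other cell types were summed per array. On the smaller type the 11 leukocyte markers summed to 779.8 to 1062 in DU145 and DU145-DR arrays. They summed to 245.9 to 260.4 in those of 22Rv1 and 22Rv1-DR. The floor of the values differs between the lines there, so these sums are not set against each other. On the larger type the sums were 403.8 in DU145, 363 in DU145-DR, 359.2 in 22Rv1 and 384.7 in 22Rv1-DR. Of these 11, 8 to 10 a group lay below the 40th percentile on both arrays of the smaller type. The 8 fibroblast markers summed to 3044, 4203 and 2061 in 22Rv1-DR against 227.2, 226.6 and 1221 in 22Rv1. LUM, a matrix proteoglycan, made up most of this, at 2778, 3984 and 1698 against 28.8, 41.9 and 729. In DU145-DR the fibroblast sum was 1568, 1001 and 708.2 against 916.1, 692.3 and 455 in DU145, with FBN1, a microfibril gene, at 771, 370 and 471 against 116, 123 and 88.6. The 8 epithelial markers summed to 8806, 9157 and 10240 in DU145-DR against 20160, 24060 and 25750 in DU145, and to 9276, 9178 and 15300 in 22Rv1-DR against 15650, 14840 and 21770 in 22Rv1. Its members differed. The adhesion gene CDH1 read 2369, 3641 and 3281 in DU145 and 38.6, 40.2 and 7.46 in DU145-DR, while the keratin KRT8 read 2702, 2978 and 3743 and 3397, 2759 and 5149. The part of these shifts in the class I results was not tested.

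Likeness was measured as Pearson's r over the 8 arrays of the smaller type after the mean of each line had been subtracted, which leaves few independent points. The genes most like TAP1 were IVD (0.995), PLAAT3 (0.993), PIGC (0.99), SQOR (0.988) and TXNIP (0.986), with 113 genes above 0.95. In DU145-DR these 5 changed by -1.68 to -2.47, and in 22Rv1-DR by -0.35 to -0.85. The genes most like B2M (201891_s_at) were FNBP1 (0.99), AKR7A3 (0.989), FAM131A (0.987), NPEPPS (0.986) and IKBKE (0.986), with 66 above 0.95. NPEPPS encodes a cytosolic aminopeptidase that is also on the pathway list.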

How the data were processed

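Total RNA of 12 samples in 4 groups was measured on 2 Affymetrix array types. The authors deposited linear intensity values for each probe set, and the log2 of 100% of the deposited values has 2 decimals. The submitters' processing notes name MAS5 and RMA. What each was used for is not stated there, and no version is named. The number of arrays limits the precision. Members and gene lists were chosen with earlier results of these data known.

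Gene symbols came from the platform annotation of each array. On the smaller type 19064 had 1 symbol, 1043 several and 2108 none, and on the larger 41091, 1801 and 11721, and none was named from several. A probe set was tested where at least 1 group mean exceeded log2 6.49 (intensity 74, the 40th percentile of the table), which 16903 did. limma 3.58.1 (R 4.3.3) was run on log2(intensity + 16) of the 8 arrays with 4 group terms (lmFit and eBayes, 4 residual and 4.39 prior degrees of freedom), with Benjamini-Hochberg adjustment over all probe sets tested and two-sided tests. The third pair was not tested.

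Every member probe set enters the counts for the array types that hold it, and some have their change given only within a range. Pathway genes were represented by the brightest probe set not ending in _x_at, and those past the threshold in any comparison were named (up to 6 a list), with NLRC5, IRF1, PSMB8, PSMB9, ERAP1, CALR and PDIA3 whatever their result. For likeness the 5 closest genes to TAP1 and to B2M were named.

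Groups share replicate numbers in the labels. Within a line, same-numbered parental and resistant arrays deviated together (r = 0.728 in DU145 and 0.794 in 22Rv1 over probe sets; 0.0780 to 0.110 across lines), so a fit with the replicate number as a block within each line (2 residual degrees of freedom) is given beside many of the results whose call it changes. The labels do not say what the number marks. Alternatives were other pseudocounts, filters and normalizations, the block, subsets of arrays, and each array left out.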

Additional observations from a re-analysis of the deposited data

Results flagged for a closer look

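The difference between the lines' changes passed its test for 2 member probe sets. For HLA-E 200904_at the 22Rv1 change minus the DU145 change was 1.21, with -0.08 in 22Rv1-DR and -1.29 in DU145-DR. For TAP1 202307_s_at it was 1.13, with -0.49 and -1.62. Both were found among 24 probe sets examined, and both were lost with pseudocount 1, with the arrays shifted to 1 median, and in the fit of all 12 arrays. In the third pair the difference was 0.45 for HLA-E and 0.98 for TAP1.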

How the results depend on the processing

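For DU145-DR, the 4 member calls became 11 with pseudocount 64, 10 with a filter at the 60th percentile, 10 with quantile normalization, 2 with the arrays shifted to 1 median, 1 with the line's 4 arrays alone, 2 with all 12 arrays, and 2 to 5 without 1 array. For 22Rv1-DR, the 6 became 3 with pseudocount 64, 2 with 1 probe set per gene (fewer are tested), and 1 to 6 without 1 array. For the difference, the 2 became 0 with pseudocount 1, the median shift or all 12 arrays, and 0 to 1 without 1 array. Pathway calls became, in DU145-DR (5), 8 with quantile normalization, 2 with 4 arrays and 3 to 7 without 1 array. In 22Rv1-DR (1) they became 2, 4 and 0 to 3, and 0 with all 12 arrays. In the difference (5) they became 2 with pseudocount 1, the median shift or all 12 arrays, 3 without a filter or with a trend, and 1 to 5 without 1 array. The causes were not tested.

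With the replicate block, member calls were 23 in DU145-DR, 12 in 22Rv1-DR and 11 in the difference, and pathway calls 19, 9 and 22. It leaves 2 residual degrees of freedom.

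Signs turned for values that had not passed. With all 12 arrays the 22Rv1-DR change was -0.26 and -0.33 for B2M, -0.39 for HLA-E 217456_x_at, -0.0164 for TAP2 204770_at (-0.0244 with the median shift) and 0.00337 for ERAP2, CALR in DU145-DR was -0.0178, and the difference was 0.11 for HLA-G 211530_x_at (0.0636 with pseudocount 64) and -0.10 for ERAP1 (-0.0771 with the median shift, -0.00757 with pseudocount 1). Without 1 array the ranges crossed 0 for 22Rv1-DR in HLA-E (-0.21 to 0.0397, -0.54 to 0.26, -0.12 to 0.30), B2M 201891_s_at (-0.0398 to 0.18), TAP2 204770_at (-0.0680 to 0.0802), TAPBP (-1.01 to 0.0775, -0.18 to 0.12), HLA-G (-0.16 to 0.0584, -0.61 to 0.15, -1.70 to 0.34), HLA-C 211799_x_at (-1.04 to 0.12), ERAP2 (-0.0854 to 0.0493) and IRF1 (-0.20 to 0.48). They did so for DU145-DR in CALR (-0.52 to 0.63), PDIA3 (-0.39 to 0.0449) and ERAP1 (-0.63 to 0.00486), and for the difference in HLA-G 211530_x_at (-1.09 to 0.95), HLA-C 211799_x_at (-0.40 to 0.77), HLA-F 221875_x_at (-0.20 to 0.50) and ERAP1 (-0.29 to 0.34). The number of arrays limits the precision.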
